A study of Mus musculus with 9 samples.

Results

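The 10 genes described here handle iron. Fth1 and Ftl1 encode the heavy and light chains of ferritin, the protein shell that stores iron. Trf encodes transferrin, the iron carrier of plasma and cerebrospinal fluid, and Tfrc the receptor that takes it up. Slc11a2 (DMT1) moves ferrous iron out of endosomes and Slc11a1 (NRAMP1) out of the phagosomes of macrophages. Slc40a1 encodes ferroportin, the iron exporter, and Cp encodes ceruloplasmin, the copper ferroxidase that oxidises iron as it leaves a cell. Hmox1 encodes heme oxygenase 1, the inducible enzyme that frees iron from heme, and Aco1 encodes cytosolic aconitase, which serves as iron regulatory protein 1 when it carries no iron-sulfur cluster. They were chosen by name, as the rows of the count table with these symbols, 10 of 40879 symbols in all. All 10 had enough counts to be tested.

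RNA of whole spinal cord was measured by 3′ mRNA sequencing, which reads the end of each transcript, so that counts are not scaled to gene length. The 9 libraries formed 3 groups of 3, all from mice labelled wild type (WT). EAE, short for experimental autoimmune encephalomyelitis, is used in mice to model multiple sclerosis: immune cells directed at myelin inflame the cord. Mice of the EAE GV1001 group had EAE and received GV1001, a telomerase-derived peptide. Mice of the EAE vehicle group had EAE and received vehicle, and naive mice had neither. The labels used here give no dose, day of disease, age or antigen. They also do not say that replicates are separate animals, so p-values measure only the spread between these libraries, which may be technical.

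Iron in the cord is held mainly in oligodendrocytes, which make transferrin, and in microglia and macrophages, which take up and recycle it. Cells set ferritin and transferrin receptor by a shared switch. When iron is scarce, iron regulatory proteins bind a hairpin in RNA, the iron-responsive element. Bound at the start of a ferritin mRNA the protein blocks translation, and bound at the end of the transferrin receptor mRNA it protects that RNA from decay. Ferritin protein can therefore change with little change in its mRNA, which is what was measured here, while the level of the Tfrc mRNA is itself part of the switch.

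The hairpins are shown because they are the feature by which Fth1, Ftl1 and Tfrc are known to be coordinated. They were found in GENCODE M21 transcripts (build GRCm38, not the build of the counts) with the motif CNNNNNCAGTGN, on the sense strand only, its last base not G and its 5 bases after the first C paired with the 5 bases after the loop. Each line gives 30 bases, 5′ to 3′, with the unpaired C and the loop in capitals.
Fth1 element 1: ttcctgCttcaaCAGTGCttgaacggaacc
Ftl1 element 1: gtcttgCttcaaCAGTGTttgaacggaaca
Tfrc element 1: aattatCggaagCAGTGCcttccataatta
Tfrc element 2: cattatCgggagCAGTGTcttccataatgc
Tfrc element 3: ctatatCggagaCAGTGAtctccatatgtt
Tfrc element 4: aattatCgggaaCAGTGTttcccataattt

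Fth1 and Ftl1 each held 1 such hairpin, in the 5′ UTR, and Tfrc held 4, all in the 3′ UTR. Only Fth1, Ftl1 and Tfrc were looked up. Whether the other iron genes described here hold such a hairpin was not examined. The Fth1 hairpin lies in exon 2 of the transcript used, on the plus strand at chr19:9982732-9982761. That of Ftl1 lies in exon 1, on the minus strand at chr7:45459778-45459807. Those of Tfrc lie in exon 19, on the plus strand at chr16:32631219-32631248, chr16:32631598-32631627, chr16:32631663-32631692 and chr16:32631710-32631739. Of 20363 genes with an annotated 5′ UTR, 16 (0.0786%) held such a match there, and of 20624 with a 3′ UTR, 83 (0.402%). The match is a description of the letters. Binding was not measured.

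Total counts ranged from 5247246 to 6174870 per library, and 3 counts, the floor set by counting error alone, came to 0.486 to 0.572 CPM (counts scaled to a library total of 1000000). The summed CPM of 10 oligodendrocyte markers was 15318 to 16730 in EAE GV1001, 13495 to 17963 in EAE vehicle and 18257 to 20188 in naive libraries. Markers of other tissues had counts as well. For 8 skeletal muscle markers the sums were 377 to 3936 CPM in EAE GV1001, 17.6 to 408 CPM in EAE vehicle and 20.8 to 193 CPM in naive libraries. For 7 Schwann cell markers the sums were 2284 to 3331 CPM in EAE GV1001, 495 to 2356 CPM in EAE vehicle and 874 to 1396 CPM in naive libraries. The libraries of EAE vehicle stood far apart. On the first principal component, which held 46.2% of the variance, EAE vehicle replicate 1 lay at 80.4, while every other library lay at or below 34.9. The summed CPM of 14 microglia and macrophage markers was 467, 1793 and 694 in EAE GV1001 replicates 1 to 3, 5012, 818 and 2253 in EAE vehicle and 363, 419 and 439 in naive libraries. Because the RNA is of whole tissue, fewer cells of a type and less RNA per cell cannot be told apart.

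The diseased cord given vehicle was set against naive cord first. Ftl1, Slc11a1 and Cp were higher in each EAE vehicle library than in any naive library, with means of 340, 14.9 and 135 CPM in EAE vehicle and 93.4, 1.35 and 43.4 CPM in naive cord (n = 3 each). None of these differences passed the main test. The SD over the EAE vehicle libraries was 188, 17.3 and 42.1 CPM for the 3 genes. With the edgeR quasi-likelihood F test, adjusted by the Benjamini-Hochberg method over 15351 genes with a threshold of 0.05, 0 of the 10 genes passed, beside 0.0195% of all tested genes (3 of 15351). At an unadjusted p under 0.05 in the same test, Ftl1, Slc11a1 and Cp were higher and Tfrc was lower, 4 of 10 genes beside 19.3% of all genes. Groups did not overlap, EAE vehicle being higher, for 5 genes (Fth1, Ftl1, Slc11a1, Slc11a2 and Cp), beside 13.6% of all genes. Slc11a1, with 7 to 9 counts per naive library, passed the filter on low counts through the EAE libraries only. Its separation from naive, here and below, is therefore not independent of that filter. DESeq2, the other count model, placed Ftl1, Slc11a1 and Cp past the threshold, 3 of 10 beside 6.52% of the genes it tested, with adjusted p of 0.00206, 0.00109 and 2.38e-06. By limma-voom 0 of 10 passed in this and in every other comparison. In EAE vehicle against naive it placed 0 of all tested genes past the threshold. The median log2 fold change was 0.30 over the 10 genes and −0.00 over all tested genes. Of the 10 genes 8 lay above 0, beside 7598 of all 15351. Trf and Hmox1, among those 8, fell below 0 without EAE vehicle replicate 1.

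Treatment was addressed by EAE GV1001 against EAE vehicle. No iron gene separated the groups. In the edgeR test 0 of 10 passed, beside 0.0% of all genes, and DESeq2 also placed 0 of 10 past the threshold, beside 0.0569% of its genes. At an unadjusted p under 0.05 in edgeR, Tfrc was higher and Ftl1 and Slc11a1 were lower in EAE GV1001, 3 of 10 beside 9.08% of all genes. The groups overlapped for all 10 genes, while 10.5% of all genes did not overlap. The median log2 fold change of the 10 genes was −0.21, beside −0.01 over all genes. Of the 10 genes 8 lay below 0, beside 7895 of all 15351. Trf and Hmox1, among those 8, rose above 0 without EAE vehicle replicate 1. This comparison and that of EAE vehicle with naive share the EAE vehicle libraries, so their values are set side by side without a measure of how well they match.

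GV1001-treated diseased cord was also set against naive cord. Cp averaged 113 ± 32.2 CPM in EAE GV1001 and 43.4 ± 11.9 CPM in naive libraries (SD, n = 3 each). The edgeR test placed 0 of 10 genes past the threshold, beside 0.0% of all genes, and DESeq2 placed Cp past it (adjusted p 0.000847), 1 of 10 beside 0.237%. At an unadjusted p under 0.05, Ftl1 and Cp were higher, 2 of 10 beside 7.3% of all genes. Ftl1, Slc11a1 and Cp were higher in every EAE GV1001 library than in any naive library, 3 of 10 beside 10.2% of all genes. For both EAE groups together against naive, edgeR placed 0 of 10 past the threshold, beside 0.00651% of all genes. At an unadjusted p under 0.05 the number was 3 of 10 (Ftl1, Slc11a1 and Cp, all higher), beside 15.3%. The same 3 genes were higher in all 6 EAE libraries than in any naive library, beside 5.25% of all genes. For Slc11a1 this is again not independent of the filter on low counts. By DESeq2 these 3 genes passed, beside 3.34%, with adjusted p of 0.0165, 0.0184 and 4.53e-07.

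**Figure D1:**
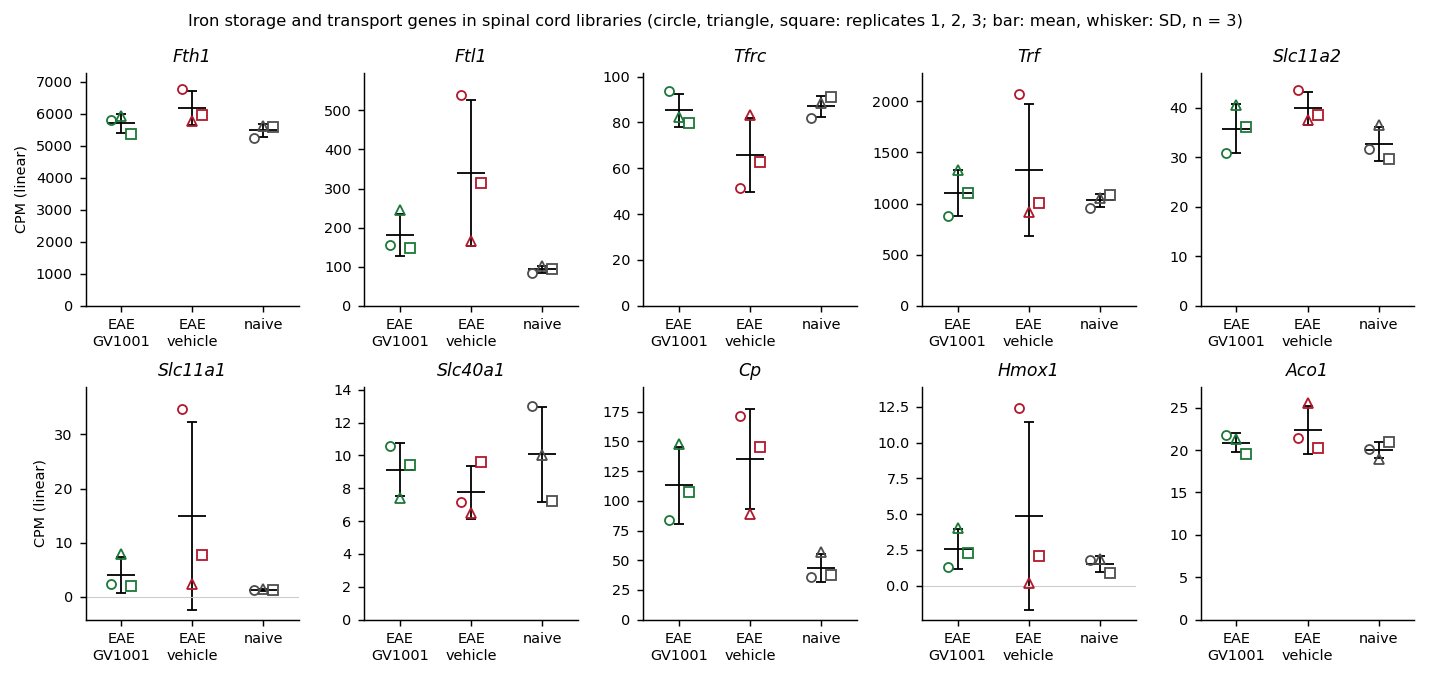
CPM (linear scale) of each of the 10 iron genes in each library, for EAE GV1001, EAE vehicle and naive from left to right. Circles, triangles and squares are replicates 1, 2 and 3, bars are means and whiskers SD (n = 3). EAE vehicle replicate 1 is the highest library for Fth1, Ftl1, Trf, Slc11a2, Slc11a1, Cp and Hmox1 and the lowest for Tfrc, and the naive libraries of Ftl1 and Cp lie below all others.

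Of the storage genes, the heavy chain varied less than the light chain: over the 9 libraries the highest level was 1.29 times the lowest for Fth1 and 6.34 times for Ftl1. Fth1 stood at 5817, 5933 and 5369 CPM in EAE GV1001 replicates 1 to 3, 6779, 5786 and 5973 CPM in EAE vehicle and 5246, 5627 and 5574 CPM in naive libraries. The naive range lay just under that of EAE vehicle, and the EAE GV1001 range overlapped both. Its log2 fold change was 0.15 ± 0.13 (standard error, SE) in EAE vehicle against naive and −0.11 ± 0.13 in EAE GV1001 against EAE vehicle, with edgeR adjusted p of 0.574 and 0.795.

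Ftl1 stood at 154, 244 and 148 CPM in EAE GV1001, 539, 166 and 314 CPM in EAE vehicle and 85.0, 102 and 93.5 CPM in naive libraries. All 6 EAE libraries lay above the naive ones, and EAE vehicle replicate 2 lay inside the range of EAE GV1001. For Ftl1, log2 fold changes were 1.85 ± 0.36 in EAE vehicle against naive (edgeR adjusted p 0.0678), 0.93 ± 0.36 in EAE GV1001 against naive (0.656) and −0.91 ± 0.35 in EAE GV1001 against EAE vehicle (0.529). Without EAE vehicle replicate 1, the first of these became 1.31 and the last −0.37. Without EAE vehicle replicate 2, the first became 2.18 with an edgeR adjusted p of 0.00443, in a fit in which 1652 of all tested genes passed. With any other library left out, its edgeR adjusted p was 0.0545 to 0.258. The mouse genome holds near-identical copies of both ferritin genes, so the assignment of their reads is uncertain. The copy Ftl1-ps2 had 0 to 6 counts per library. This cannot decide the matter, since how reads that fit several places were counted is not given. No copy of Fth1 was looked at.

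The light chain took a larger share of ferritin counts in every EAE library than in any naive library. Ftl1 made up 2.58% (95% Wilson interval 2.41 to 2.76), 3.95% (3.75 to 4.16) and 2.68% (2.51 to 2.85) of Fth1 and Ftl1 counts in EAE GV1001. The shares were 7.36% (7.11 to 7.62), 2.79% (2.61 to 2.97) and 5.00% (4.78 to 5.23) in EAE vehicle and 1.59%, 1.78% and 1.65% in naive libraries. These are shares of reads and not of protein, and the intervals cover counting error only. The log2 ratio of Fth1 to Ftl1 counts within a library does not depend on scaling between libraries. It averaged 5.01 ± 0.35 in EAE GV1001, 4.34 ± 0.74 in EAE vehicle and 5.88 ± 0.08 in naive libraries (SD, n = 3 each).

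The ratio was lower by 1.20 in both EAE groups together than in naive libraries, in 6 of 6 EAE libraries (exact two-sided permutation test, p = 0.0238, the smallest that 6 against 3 libraries allow). Adjusted over the 12 ratio tests made, p was 0.143, so the difference did not pass. For 3 against 3 libraries the smallest exact p is 0.1, and that was the p of EAE vehicle against naive (−1.54) and of EAE GV1001 against naive (−0.87). EAE GV1001 against EAE vehicle gave 0.67 with an exact p of 0.2. Fth1 and Ftl1 together took 0.597%, 0.618% and 0.552% of all counts in EAE GV1001, 0.732%, 0.595% and 0.629% in EAE vehicle and 0.533%, 0.573% and 0.567% in naive libraries.

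**Figure D2:**
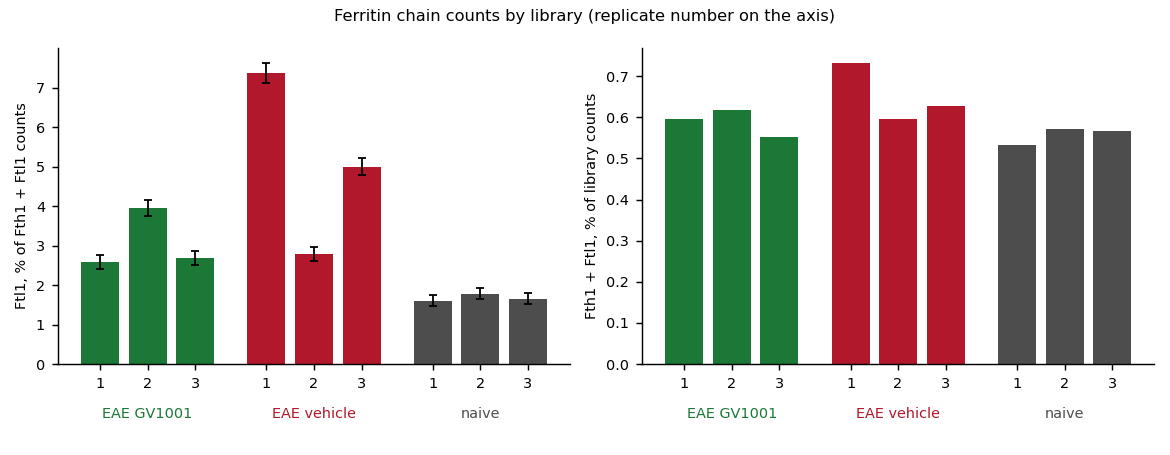
Left, Ftl1 counts as a percentage of Fth1 and Ftl1 counts in each library, with 95% Wilson intervals for counting error; right, both genes together as a percentage of all counts of the library. Bars are single libraries, replicates 1 to 3 of EAE GV1001, EAE vehicle and naive from left to right. The naive bars on the left lie between 1.59% and 1.78%, below all 6 EAE bars.

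Of the uptake genes, Tfrc, the transferrin receptor, was the only one of the 10 with a fold change below 0 in EAE vehicle and an unadjusted p under 0.05. It stood at 93.5, 82.5 and 79.7 CPM in EAE GV1001, 51.5, 83.1 and 62.8 CPM in EAE vehicle and 82.0, 88.4 and 90.9 CPM in naive libraries. EAE vehicle replicates 1 and 3 were the lowest of the 9 libraries, and replicate 2 lay among the naive ones. The log2 fold change was −0.44 ± 0.15 in EAE vehicle against naive (edgeR adjusted p 0.138), 0.38 ± 0.15 in EAE GV1001 against EAE vehicle (0.531) and −0.06 ± 0.15 in EAE GV1001 against naive (0.955). The first became −0.63 without EAE vehicle replicate 2 (edgeR adjusted p 0.0145), in a fit in which 1652 of all tested genes passed. With any other library left out, its edgeR adjusted p was 0.139 to 0.341. Summed over 8 neuron markers, the libraries held 7232, 6518 and 6925 CPM in EAE GV1001, 5195, 7273 and 5967 CPM in EAE vehicle and 7605, 7539 and 7646 CPM in naive cord. Per 1000 CPM of these markers, Tfrc came to 12.9, 12.7 and 11.5 CPM in EAE GV1001. In EAE vehicle it was 9.92, 11.4 and 10.5 CPM, and in naive libraries 10.8, 11.7 and 11.9 CPM. On this scale too, Tfrc was lowest in EAE vehicle replicates 1 and 3 and lay inside the naive range in replicate 2. Per 1000 CPM of 8 endothelium markers, it came to 262, 207 and 185 CPM in EAE GV1001, 152, 230 and 169 CPM in EAE vehicle and 232, 253 and 256 CPM in naive libraries, and on this scale each EAE vehicle library lay below each naive library. The part of either cell type in the difference was not tested.

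Trf, the transferrin gene, stood at 880, 1327 and 1101 CPM in EAE GV1001, 2077, 916 and 1003 CPM in EAE vehicle and 960, 1058 and 1082 CPM in naive libraries. EAE vehicle replicate 1 was far above the other 8 libraries, among which the groups overlapped. The log2 fold change of 0.35 ± 0.29 in EAE vehicle against naive (edgeR adjusted p 0.552) became −0.16 without that library. In EAE GV1001 against EAE vehicle, −0.28 ± 0.28 (edgeR adjusted p 0.777) became 0.23. In the same library the 10 oligodendrocyte markers were at their lowest. Their sums were 15318, 15566 and 16730 CPM in EAE GV1001, 13495, 17963 and 16603 CPM in EAE vehicle and 18257, 20188 and 18445 CPM in naive libraries. Per 1000 CPM of these markers, Trf came to 154 CPM in EAE vehicle replicate 1 and to 51.0 to 85.3 CPM in the other libraries.

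Slc11a2, the endosomal transporter, varied little. It stood at 30.8, 40.6 and 36.1 CPM in EAE GV1001, 43.6, 37.5 and 38.5 CPM in EAE vehicle and 31.7, 36.6 and 29.8 CPM in naive libraries. The EAE vehicle range lay just above the naive range, and EAE GV1001 overlapped both. In log2 fold change, Slc11a2 differed by 0.26 ± 0.14 in EAE vehicle against naive (edgeR adjusted p 0.370) and −0.15 ± 0.14 in EAE GV1001 against EAE vehicle (0.759).

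Slc11a1, the transporter of macrophage phagosomes, had the widest range after Hmox1. It had 13, 45 and 12 counts in EAE GV1001, 193, 13 and 44 counts in EAE vehicle and 7, 9 and 7 counts in naive libraries, which came to 2.46, 7.93 and 1.94 CPM in EAE GV1001, 34.7, 2.48 and 7.67 CPM in EAE vehicle and 1.25, 1.55 and 1.26 CPM in naive libraries. All EAE libraries lay above all naive ones, but EAE vehicle replicate 2 and EAE GV1001 replicates 1 and 3 were within the 95% Poisson interval of naive replicate 2, which reached up to 2.95 CPM. Log2 fold changes of Slc11a1 were 3.43 ± 1.02 in EAE vehicle against naive (edgeR adjusted p 0.105), −1.88 ± 0.83 in EAE GV1001 against EAE vehicle (0.541) and 1.55 ± 1.28 in EAE GV1001 against naive (0.830). Without EAE vehicle replicate 1, the first became 1.86 and the next −0.31. The first became 3.93 without EAE vehicle replicate 2 (edgeR adjusted p 0.0163), in a fit in which 1652 of all tested genes passed. With any other library left out, its edgeR adjusted p was 0.101 to 0.284. Without EAE GV1001 replicate 2, the fold change in EAE GV1001 against naive became 0.65 (edgeR adjusted p 0.998).

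The log2 ratio of Slc11a1 to Slc11a2 averaged −3.41 ± 0.95 in EAE GV1001, −2.19 ± 1.80 in EAE vehicle and −4.60 ± 0.06 in naive libraries (SD, n = 3 each). Both EAE groups together were higher than naive by 1.80, in 6 of 6 EAE libraries, with an exact permutation p of 0.0238 and 0.143 after adjustment over the 12 ratio tests. The 4 libraries with the highest microglia and macrophage marker sums were also the 4 highest for Slc11a1 and for Ftl1. Per 1000 CPM of those 14 markers, Slc11a1 came to 5.26, 4.42 and 2.80 CPM in EAE GV1001, 6.91, 3.03 and 3.40 CPM in EAE vehicle and 3.44, 3.71 and 2.88 CPM in naive libraries. In EAE vehicle replicate 1 the markers were 12.3 times their naive mean, Slc11a1 25.6 times and Ftl1 5.77 times. The part of these cells in either difference was not tested.

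**Figure D3:**
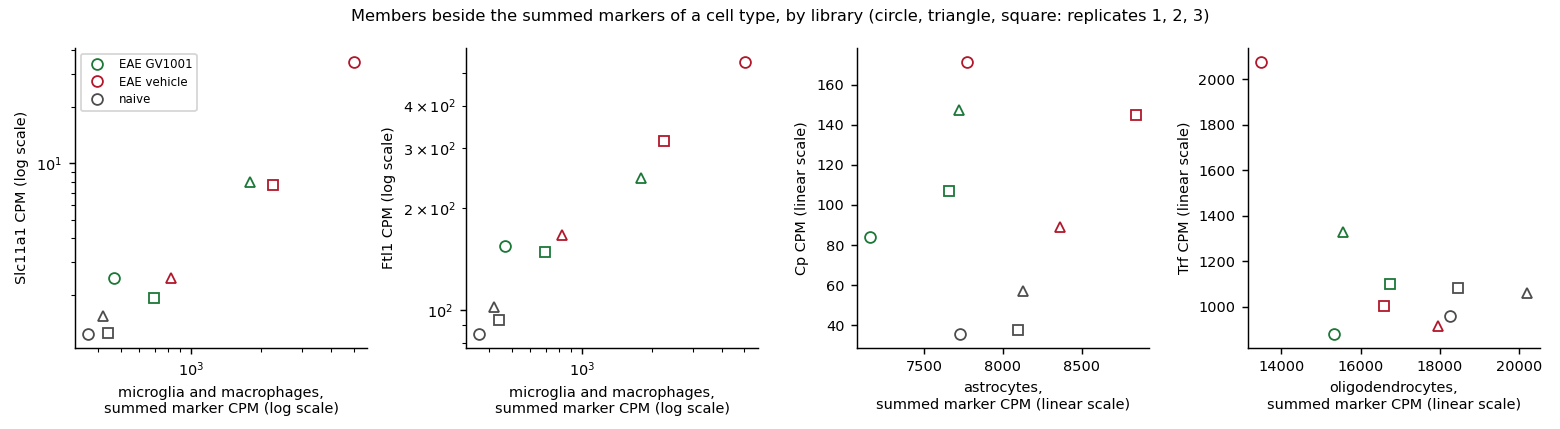
Slc11a1 and Ftl1 against summed microglia and macrophage markers (log scales), Cp against summed astrocyte markers and Trf against summed oligodendrocyte markers (linear scales that do not start at 0), all in CPM. Each point is a library, with circles, triangles and squares for replicates 1, 2 and 3. In the Trf panel EAE vehicle replicate 1 has the highest Trf (2077 CPM) and the lowest marker sum (13495 CPM).

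Of the export genes, Slc40a1 did not separate the groups and Cp separated both EAE groups from naive without passing the edgeR test. Slc40a1, the iron exporter, stood at 10.6, 7.41 and 9.39 CPM in EAE GV1001, 7.18, 6.48 and 9.59 CPM in EAE vehicle and 13.0, 10.01 and 7.22 CPM in naive libraries, and the groups overlapped throughout. Counting error alone gives a coefficient of variation of 13.2% to 15.2% at this depth, beside observed values of 17.6% in EAE GV1001, 21.0% in EAE vehicle and 28.7% in naive libraries. The log2 fold change was −0.40 ± 0.27 in EAE vehicle against naive and 0.23 ± 0.28 in EAE GV1001 against EAE vehicle, with edgeR adjusted p of 0.459 and 0.813. The log2 ratio of Tfrc to Slc40a1, import against export, averaged 3.24 ± 0.21 in EAE GV1001, 3.08 ± 0.53 in EAE vehicle and 3.15 ± 0.50 in naive libraries (SD, n = 3 each), and the exact permutation p of its 4 comparisons lay between 0.6 and 1.

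Cp, ceruloplasmin, stood at 84.1, 148 and 107 CPM in EAE GV1001, 171, 89.0 and 145 CPM in EAE vehicle and 35.6, 57.1 and 37.5 CPM in naive libraries. Each EAE library exceeded each naive library, and the EAE groups overlapped. Log2 fold changes of Cp were 1.61 ± 0.28 in EAE vehicle against naive (edgeR adjusted p 0.0629), 1.35 ± 0.28 in EAE GV1001 against naive (0.466) and −0.26 ± 0.27 in EAE GV1001 against EAE vehicle (0.781). Of the 10 genes, Cp had the smallest edgeR p in EAE vehicle against naive, 0.000155 before adjustment. Without EAE vehicle replicate 2 the edgeR adjusted p was 0.00543, in a fit in which 1652 of all tested genes passed. Without EAE GV1001 replicate 1, which enters through the shared spread, it was 0.0437. With any other library left out it was 0.0545 to 0.258, the highest without naive replicate 1. Astrocytes are a known source of Cp in the central nervous system, and the summed CPM of the 8 astrocyte markers was 7159 to 7722 in EAE GV1001, 7771 to 8842 in EAE vehicle and 7726 to 8125 in naive libraries. Per 1000 CPM of these markers, Cp came to 11.7 to 19.1 CPM in EAE GV1001, 10.6 to 22.1 CPM in EAE vehicle and 4.61 to 7.03 CPM in naive libraries. Gfap, 1 of these markers, which reactive astrocytes express strongly, lay at 428, 1208 and 852 CPM in EAE GV1001, 1597, 791 and 1344 CPM in EAE vehicle and 551, 818 and 627 CPM in naive libraries. The 3 libraries with the highest Cp, EAE vehicle replicates 1 and 3 and EAE GV1001 replicate 2, also had the highest Gfap and the highest summed microglia and macrophage markers (1793 to 5012 CPM). The part of these cells in the Cp values was not tested.

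Hmox1, the inducible heme oxygenase, had few counts. It had 7, 23 and 14 counts in EAE GV1001, 69, 1 and 12 counts in EAE vehicle and 10, 11 and 5 counts in naive libraries. EAE vehicle held both the highest and the lowest library, and all groups overlapped. The log2 fold change of 1.65 ± 0.98 in EAE vehicle against naive (edgeR adjusted p 0.400) became −0.42 without EAE vehicle replicate 1. That of −0.95 ± 0.88 in EAE GV1001 against EAE vehicle (0.758) became 1.13. The library with 1 count of Hmox1, EAE vehicle replicate 2, had the highest sum of the 7 erythroid markers, 4867 CPM, beside 255 to 723 CPM in the other libraries, and the part of blood in this value was not tested.

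Aco1, the cytosolic aconitase, varied little. It stood at 21.7, 21.3 and 19.6 CPM in EAE GV1001, 21.4, 25.5 and 20.2 CPM in EAE vehicle and 20.1, 19.0 and 20.9 CPM in naive libraries. The groups overlapped, and the coefficients of variation in EAE GV1001 (5.43%) and naive (4.87%) libraries were under the 9.17% and 9.41% that counting error alone gives. Its log2 fold change was 0.13 ± 0.15 in EAE vehicle against naive and −0.10 ± 0.15 in EAE GV1001 against EAE vehicle, with edgeR adjusted p of 0.689 and 0.858.

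**Figure D4:**
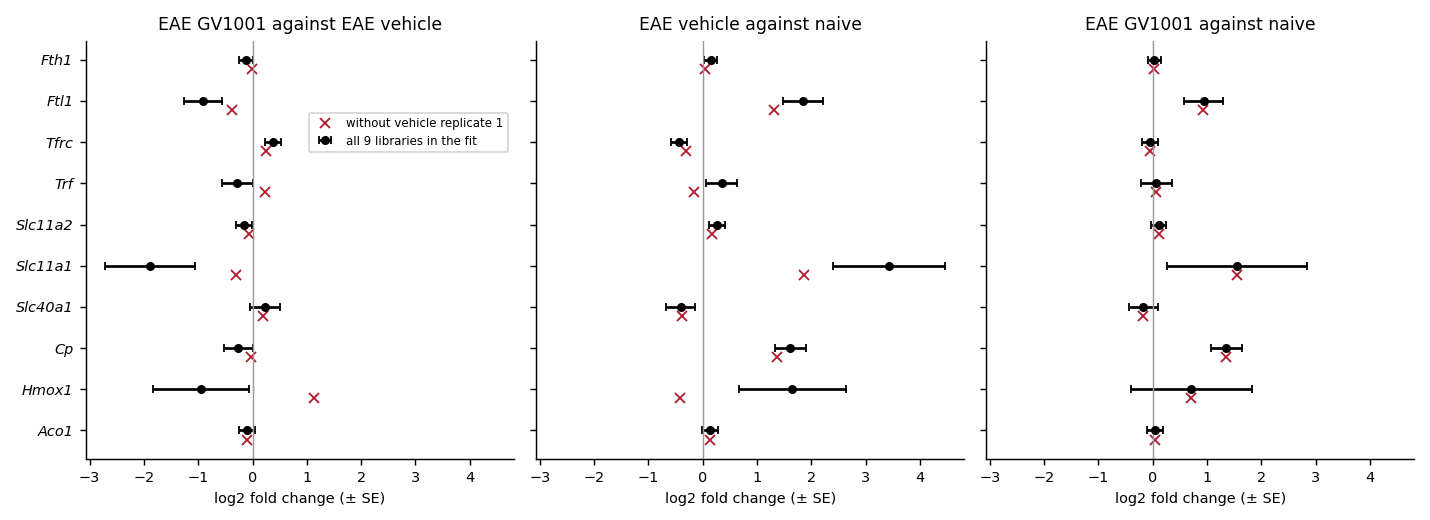
Log2 fold changes of the 10 iron genes with standard errors (black, all 9 libraries in the edgeR fit) and without EAE vehicle replicate 1 (red crosses), for EAE GV1001 against EAE vehicle, EAE vehicle against naive and EAE GV1001 against naive from left to right. Ftl1, Slc11a1 and Cp lie to the right of 0 in both comparisons with naive, and the crosses of Trf and Hmox1 lie across 0 from the black points in the first 2 panels.

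The genes differed in the library order. EAE vehicle replicate 1 ranked highest for 7 of the 10 genes, and EAE GV1001 replicate 2 followed it for Trf, Slc11a1, Slc11a2, Cp and Hmox1. Over the 9 libraries, Ftl1 had a Pearson r of log2 CPM of 0.97 with Slc11a1, 0.91 with Cp and −0.87 with Tfrc, while Aco1 had an r of 0.18 with Ftl1. These values describe 9 shared libraries, in which EAE vehicle replicate 1 lies at an end of the range of Ftl1, Slc11a1, Cp and Tfrc. Outside the 10 genes, the closest gene to Ftl1 over the 9 libraries was Mob1a (r 0.994), followed by the ribosomal gene Rplp0 and by Cyba, a subunit of the phagocyte oxidase. The closest to Slc11a1 was Nrros (r 0.996), which microglia express, and the closest to Cp was Serping1 (r 0.985), the inhibitor of complement C1. For Tfrc these were the neurotrophin receptor gene Ntrk3 (r 0.988) and Chga (r 0.971), the chromogranin of secretory granules. Trf was closest to Rpl13 (r 0.994), Fth1 to Vps4b (0.974), Slc11a2 to Crym (0.964), Hmox1 to Lix1l (0.968), Slc40a1 to Ivd (0.942) and Aco1 to Alk (0.912).

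Other genes of iron and heme handling were described from 6 lists of 69 genes, of which 59 had enough counts. In each comparison 0 of the 59 passed the edgeR test, beside at most 0.0195% of all genes. By limma-voom 0 of the 59 passed as well, and 0 of all genes in EAE vehicle against naive. DESeq2 placed 6 of 59 past the threshold in EAE vehicle against naive, beside 6.52% of the genes it tested. These were Steap4, Cybrd1, Abcg2, Hp, Lcn2 and Slpi, all with fold changes above 0. In EAE GV1001 against EAE vehicle DESeq2 placed 0 past it, beside 0.0569%, and in EAE GV1001 against naive 0, beside 0.237%. At an unadjusted p under 0.05 in edgeR, 9 were higher and 1 was lower in EAE vehicle than in naive libraries, 10 of 59 beside 19.3% of all genes. In EAE GV1001 against EAE vehicle 4 were higher and 2 lower, beside 9.08% of all genes, and in EAE GV1001 against naive 7 were higher and 1 lower, beside 7.3%. The median log2 fold change in EAE vehicle against naive was 0.28 for 11 genes of iron uptake and reduction, 0.21 for 11 of export and systemic control, 0.07 for 5 of iron sensing and ferritin turnover, 0.02 for 18 of heme metabolism, −0.11 for 10 of iron-sulfur cluster assembly and 1.89 for 4 iron-scavenging proteins of innate immunity.

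In EAE vehicle against naive the smallest p of these lists belonged to Steap4, Lcn2 and Cybrd1. These genes too passed the filter on low counts through the EAE libraries. So did Hp, with 1, 8 and 4 counts in naive libraries. Its log2 fold change of 3.65 ± 1.21 in EAE vehicle against naive (edgeR adjusted p 0.127) became 1.65 (0.412) without EAE vehicle replicate 1. Lcn2, lipocalin 2, which withholds iron from bacteria by binding siderophores, stood at 26.1, 81.3 and 31.3 CPM in EAE GV1001, 294, 37.4 and 47.9 CPM in EAE vehicle and 1.43, 6.91 and 1.08 CPM in naive libraries. Every EAE library lay above every naive one, with a log2 fold change of 5.31 ± 1.03 in EAE vehicle against naive (edgeR adjusted p 0.0674) and −1.48 ± 0.74 in EAE GV1001 against EAE vehicle (0.575). Without EAE vehicle replicate 1 these became 3.68 and 0.14. Steap4, a metalloreductase that reduces ferric iron, stood at 2.65, 9.87 and 2.59 CPM in EAE GV1001, 18.1, 6.10 and 14.6 CPM in EAE vehicle and 0.178, 1.21 and 1.08 CPM in naive libraries. Its log2 fold change was 3.92 ± 0.74 in EAE vehicle against naive (edgeR adjusted p 0.0674). Cybrd1, the duodenal cytochrome b reductase, stood at 2.46, 3.53 and 3.24 CPM in EAE GV1001, 3.95, 2.10 and 6.45 CPM in EAE vehicle and 0.535, 1.21 and 1.08 CPM in naive libraries, with a log2 fold change of 2.10 ± 0.52 in EAE vehicle against naive (0.0772 in the edgeR test).

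Of the heme and export lists, Abcg2, an efflux pump that carries porphyrins, had a log2 fold change of 0.53 ± 0.13 in EAE vehicle against naive (edgeR adjusted p 0.0792), and Slc48a1, which carries heme out of lysosomes, one of −0.31 ± 0.11 (0.166). Cd163, the macrophage receptor for hemoglobin bound to haptoglobin, stood at 4.35, 7.93 and 3.72 CPM in EAE GV1001, 2.51, 4.19 and 2.79 CPM in EAE vehicle and 1.78, 2.76 and 2.35 CPM in naive libraries. Its log2 fold change in EAE GV1001 against naive was 1.17 ± 0.40 (edgeR adjusted p 0.652). Hjv, hemojuvelin, a bone morphogenetic protein co-receptor that muscle also expresses, had 16.4 CPM in EAE GV1001 replicate 1 and at most 1.94 CPM in every other library. That library also had the highest sum of the 8 skeletal muscle markers, 3936 CPM, beside 17.6 to 1034 CPM in the others, and the part of muscle was not tested. Hamp, the gene of the iron hormone hepcidin, had 0 counts in EAE GV1001, 1 in EAE vehicle and 0 in naive libraries and was not tested.

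Ireb2, which encodes the other iron regulatory protein, lay at 44.2, 48.8 and 48.1 CPM in EAE GV1001, 51.0, 56.2 and 54.4 CPM in EAE vehicle and 55.2, 42.8 and 44.2 CPM in naive libraries, with edgeR adjusted p of 0.649 in EAE GV1001 against EAE vehicle and 0.541 in EAE vehicle against naive. Fbxl5, the ubiquitin ligase subunit that removes that protein when iron is plentiful, had a log2 fold change of 0.17 ± 0.13 in EAE vehicle against naive (edgeR adjusted p 0.525). Neither those regulators nor Aco1 passed the test in any comparison. Lrp1, a receptor for heme bound to hemopexin, had a log2 fold change of 0.28 ± 0.14 in EAE vehicle against naive (edgeR adjusted p 0.322).

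Promoters were searched in RefSeq windows (GRCm38.p6) of 250 bases before to 50 after the gene start, for 6 of the 10 genes (9 windows): Fth1, Ftl1, Tfrc, Slc11a1, Cp and Aco1. Hmox1, Trf, Slc40a1 and Slc11a2 were not searched. The core of the antioxidant response element, TGACNNNGC, searched on both strands, was in 0 of these 9 windows and in 12.4% of 32851 windows of all genes. The core of the hypoxia response element, ACGTG, was in both Tfrc windows, at −2 and −228 from their starts, which is 1 site seen from 2 annotated starts, and in 19.6% of all windows. These are matches of letters only. Sites outside the windows were not searched, so a window without a match does not show that a gene lacks the element.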

How the data were processed

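Spinal cord RNA of 9 libraries, 3 per group by the sample titles, was analysed from the authors' deposited raw counts per gene symbol. Values in the 9 per-library files and in the joint table were identical. Per the labels' protocols, RNA was extracted with TRIzol or a Maxwell kit, which sample by which is not stated, and sequenced with a QuantSeq 3′ mRNA kit. Per the submitters' processing notes, FastQC, STAR, HTSeq and build GRCm39 were used, without versions; molecular identifiers, strand setting and annotation release are not given in the sources used here.

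Counts of all genes were filtered by edgeR's filterByExpr (15351 of 40879 symbols kept), normalised by TMM and fitted by edgeR 4.0.16 with 1 coefficient per group over all 9 libraries. Contrasts were tested by the quasi-likelihood F test and adjusted by the Benjamini-Hochberg method over all tested genes, with a threshold of 0.05. Standard errors were derived from the F statistic. DESeq2 1.42.0 and limma-voom (limma 3.58.1), in R 4.3.3, other settings and leaving out each library were alternatives. Count ratios were compared by exact permutation tests. Python 3.11.15 and matplotlib 3.10.9 were used for summaries and figures. The procedure was tested on simulated counts with the same spread for all genes and groups. That test does not cover the wider spread among the EAE vehicle libraries. CPM are counts scaled to a library total of 1000000.

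The 10 genes, the iron lists and the marker lists were chosen with earlier results of these data known. Named outside the 10 genes are, in each list, the most abundant gene and those with the smallest p, plus the 3 genes most correlated with each of the 10, of which some are given; 1 gene that this rule names is not reported here. Replicate numbers were not taken to pair libraries, since the labels do not say that they do. After group means were removed, 2 of 9 same-number pairs had a correlation over 0.1. Pairs of different numbers were not set beside them, so this cannot decide whether libraries are paired.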

Additional observations from a re-analysis of the deposited data

How the results depend on the processing

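All counts below are at an adjusted p under 0.05, over the 10 iron genes and over all tested genes. In EAE vehicle against naive, edgeR placed 0 iron genes and 3 of all genes past the threshold. DESeq2 gave 3 and 1105, no filter on low counts 3 and 543 and limma-voom 0 and 0. Leaving out each library gave 0 to 4 iron genes and 0 to 1652 of all genes, the highest without EAE vehicle replicate 2. In EAE GV1001 against EAE vehicle, with 0 and 0, DESeq2 gave 0 and 12, and leaving out libraries gave 0 and 0 to 8. In EAE GV1001 against naive, with 0 and 0, DESeq2 gave 1 and 45, the older quasi-likelihood form and no filter each gave 0 and 1, a fit of only the 2 groups gave 0 and 5, and leaving out libraries gave 0 and 0 to 3. For both EAE groups against naive, with 0 and 1, DESeq2 gave 3 and 565, no filter 1 and 20, limma-voom 0 and 0, the older form 0 and 2, and leaving out libraries 0 to 2 and 0 to 514. Size factors by the median-ratio method moved no count by over 1.5 times.

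With the replicate number as a block, 0 of all genes passed in each comparison, and 0 iron genes. The labels do not say that the numbers pair libraries.

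When each library was left out in turn, 5 genes changed sign in some comparison, none of them past the threshold. In EAE vehicle against naive the log2 fold change ranged from −0.16 to 0.57 for Trf and from −0.42 to 2.20 for Hmox1. In EAE GV1001 against EAE vehicle it ranged from −0.51 to 0.23 for Trf and from −1.50 to 1.13 for Hmox1, which was also 0.28 by limma-voom. In EAE GV1001 against naive it ranged from −0.0024 to 0.068 for Fth1, −0.086 to 0.20 for Trf, −0.36 to 0.050 for Slc40a1 and −0.012 to 0.073 for Aco1. For both EAE groups against naive it ranged from −0.048 to 0.31 for Trf.

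The log2 ratio of Tfrc to Slc40a1 ranged from −0.37 to 0.18 in EAE vehicle against naive, −0.026 to 0.46 in EAE GV1001 against EAE vehicle, −0.16 to 0.34 in EAE GV1001 against naive and −0.24 to 0.26 for both EAE groups against naive. For both EAE groups against naive, that of Fth1 to Ftl1 ranged from −1.32 to −0.999 and that of Slc11a1 to Slc11a2 from 1.30 to 2.08. Without naive replicate 1, 2 or 3 the exact permutation p of both was 0.0714, the smallest that 6 against 2 libraries allow. A pseudocount of 1 kept the direction of every ratio difference. The cause of these shifts was not tested. Depth limits Hmox1, Slc11a1 and Slc40a1, with 1 to 193 counts per library. The 3 libraries per group, and the spread among the EAE vehicle libraries, limit every comparison.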
